A study of Mus musculus with 9 samples.

Results

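The endothelin system of MyC-CaP, a mouse prostate cancer cell line, was examined through 5 genes: Edn1, which encodes the precursor of the peptide endothelin-1, the receptor genes Ednra and Ednrb, and Ece1 and Ece2, which encode endothelin converting enzymes. These genes were chosen by name, with earlier results of the same 9 libraries known, so the values of the members across the times are given as a description and without a test. Of the 5 genes, 4 had a row among the 15384 genes of the count table, and 2 of them, Edn1 and Ece1, had enough reads to be fitted in all comparisons. MyC-CaP cells come from a prostate tumor of a mouse that carries human MYC under a prostate epithelial promoter, and they are a single line, so replicates are cultures and not animals. The cells were kept in medium lacking serum and calcium and were then given 100 ng/mL recombinant mouse asporin (ASPN), a small leucine-rich proteoglycan that stromal cells secrete. RNA was taken at 0, 12 and 24 hours from 3 biological replicates each. In the labels ASPN is named for every library, 0 hours included, and the 0-hour libraries served as time 0. No library came from cells kept for 12 or 24 hours without ASPN, so the effect of ASPN and that of further hours in culture cannot be told apart.

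Endothelins are short peptides cut from a longer precursor, first by furin-type proprotein convertases and then by endothelin converting enzymes. They act on the G protein-coupled receptors ETA, encoded by Ednra, and ETB, encoded by Ednrb, both of which can signal through phospholipase C and calcium. Endothelin-1 is best known as a vasoconstrictor released by endothelium, but epithelial cells of the prostate make it as well, and neprilysin, encoded by Mme, is a main enzyme that breaks it down.

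The 9 libraries held 41881191 to 52993821 counts (median 44779129), and 3 counts corresponded to 0.0566 to 0.0716 CPM, the number of counts scaled to a library of standard size. That range was computed from the total counts alone. The other CPM values here were scaled with TMM factors, which ranged from 0.898 to 1.07 and were lowest in the 24-hour libraries. Replicates 1 and 2 at 24 hours were the pair furthest apart within a time. Their chi-square per degree of freedom was 17.5 over genes, compared with 3.41 for the closest pair. Among prostate epithelial markers, Foxa1, Hoxb13, Krt8, Cldn4 and Myc reached a mean of 1 CPM over the 9 libraries, while Epcam had at most 3 counts in any library. Of 10 endothelial markers, 7 were in the table and 0 reached that mean. Their summed level was 0.386 to 0.44 CPM at 0 hours, 0.328 to 0.846 CPM at 12 hours and 0.27 to 0.486 CPM at 24 hours, and Cdh5, Tie1, Flt1 and Erg had at most 3 counts in any library. Of the fibroblast and smooth muscle markers Pdgfra alone reached it, and of the leukocyte markers 0 did.

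Edn1 (ENSMUSG00000021367.8) lies on the plus strand of mouse chromosome 13 at chr13:42301476-42307990 in GRCm38. Its start region is shown because Edn1 was the member with the highest level and the widest range across the times. The 250 bases before the RefSeq start, chr13:42301226-42301475 in GRCm38.p6, plus strand, are given first, with capitals marking a CCAAT box and the short motif that SMAD proteins recognize, once on each strand. A further 16 and 30 bases of the annotated first exon follow, at chr13:42301478-42301493 and chr13:42301493-42301522, with capitals marking a GATA motif in the first, and the hypoxia response core and an AP-1 variant in the second.

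Edn1 upstream: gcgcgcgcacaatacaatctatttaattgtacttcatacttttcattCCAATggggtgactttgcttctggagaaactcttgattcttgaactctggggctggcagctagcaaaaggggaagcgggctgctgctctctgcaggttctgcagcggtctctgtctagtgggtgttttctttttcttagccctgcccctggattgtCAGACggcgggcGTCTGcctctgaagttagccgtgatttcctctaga
Edn1 exon 1, GATA: cgggtcTTATCTctgg
Edn1 exon 1, hypoxia core and AP-1 variant: gctgCACGTtgcctgtgggTGACTAAtcac

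Counted from 1 at the annotated start, the GATA motif AGATAA lay on the other strand at bases 9 to 14. The hypoxia response core ACGTG lay on the other strand at bases 22 to 26, and the AP-1 variant TGACTAA on the same strand at bases 37 to 43. The variant was added to the motifs after this sequence had been read. Of 32851 mouse RefSeq windows of the same length, searched on both strands, 2.35% held the AP-1 variant, 11.2% the GATA motif and 19.6% the hypoxia response core, and 26 windows of 24 genes (0.0791%) held all 3. All 3 are motifs that the Edn1 window holds, so Edn1 was bound to be among the 26. That share therefore does not measure how unusual Edn1 is. The SMAD motif CAGAC was found in 49.6% of windows and the box CCAAT in 37.4%. The Edn1 window did not hold the AP-1 consensus TGACTCA, which 5.20% of windows held, an NF-kB motif, which 0.411% held, or the TATA box TATAAA, which 13.6% held. In the annotated transcript a TATA box first began at base 113, inside an exon 1 of 483 bases. The window ends before that box, and the GATA, hypoxia and AP-1 matches also lie before it. Where transcription of Edn1 starts in these cells was not measured, so these matches are in exon 1 by annotation only. The hypoxia response core also stood in windows of Ece1 and Ece2. These matches are letters in a reference of another mouse strain than the one the cells came from, and no binding was measured here.

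Edn1 mRNA was present before ASPN and stood highest at 12 hours. At 0 hours the 3 libraries held 30.5, 30.3 and 30.9 CPM, from 1471, 1413 and 1687 counts. At 12 hours they held 102, 113 and 104 CPM, and at 24 hours 61.7, 67.6 and 68.6 CPM. The libraries of the 3 times formed 3 separate ranges, with the 24-hour libraries between the other two. Means were 30.6 ± 0.32 CPM at 0 hours, 106 ± 5.8 CPM at 12 hours and 66.0 ± 3.7 CPM at 24 hours (SD, n = 3). On the CPM scale, the level at 24 hours kept 46.8% of the gain seen at 12 hours.

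**Figure D1:**
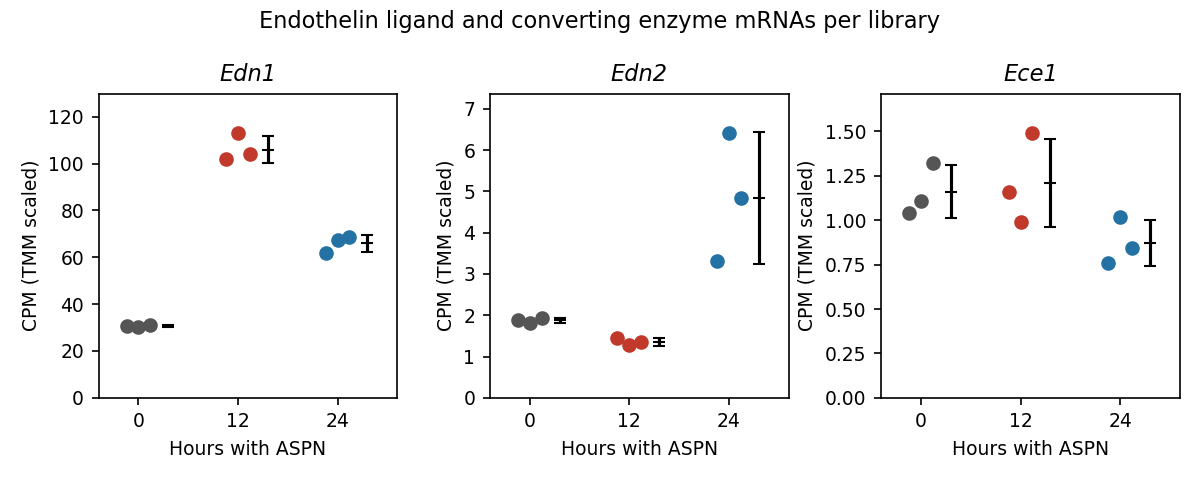
Level of Edn1, Edn2 and Ece1 mRNA in each library, in TMM-scaled CPM on a linear axis from 0, by hours with ASPN; points are libraries in replicate order and bars show the mean and SD of 3. Edn1 was highest at 12 hours (102 to 113 CPM), Edn2 at 24 hours (3.31 to 6.41 CPM), and Ece1 stayed between 0.76 and 1.49 CPM.

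Edn1 was 3.49-fold higher at 12 than at 0 hours, a log2 fold change of 1.80 (SE 0.042), which ranked 44 from the top among 11410 genes. At 24 hours it was 2.16-fold above 0 hours, a log2 fold change of 1.11 (SE 0.053) at rank 307 of 11444. From 12 to 24 hours it changed to 0.629 of its level, a log2 fold change of -0.67 (SE 0.050) at rank 9844 of 11394. Both comparisons with 0 hours use the same 3 libraries of time 0. Leaving out any 1 library kept these log2 fold changes within 1.76 to 1.83, 1.08 to 1.16 and -0.70 to -0.63. An overlapping antisense gene, Gm47118, covers 35 exon bases of Edn1 (1.6%) and had no row in the table, and the strand setting of the counting is not given in the sources used here.

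Corrected for exon length, Edn1 stood at 14.3 CPM per kilobase at 0 hours, 49.7 at 12 hours and 30.8 at 24 hours. That placed its level at rank 3143 of 15374 genes at 0 hours, rank 880 at 12 hours and rank 1530 at 24 hours, or among the highest 20.4%, 5.72% and 9.95% of genes. Libraries of the 2 times did not overlap for 1 of the 2 fitted members (Edn1) between 0 and 12 hours, for both between 0 and 24 hours and for 1 (Edn1) between 12 and 24 hours. Among all genes fitted, the same held for 27.1%, 74% and 73.8% in these comparisons.

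**Figure D2:**
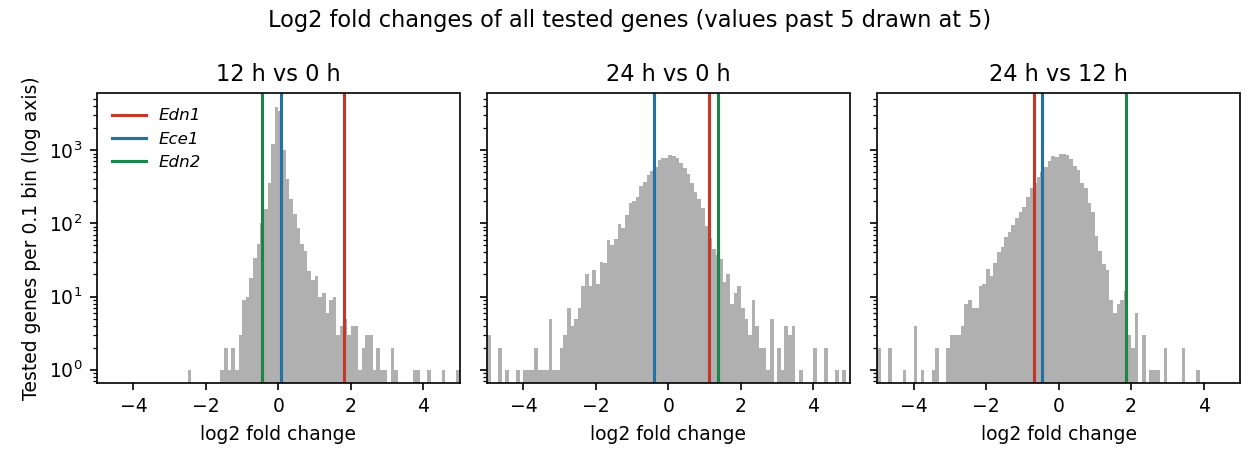
Histograms of the log2 fold changes of all genes fitted in each comparison (bins of 0.1, gene number on a log axis, values past 5 drawn at 5), with lines at Edn1, Ece1 and Edn2. Edn1 lay in the far right tail at 12 hours (1.80), further in at 24 hours (1.11) and left of the center between 12 and 24 hours (-0.67).

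Edn2 (ENSMUSG00000028635.7, chr4:120161206-120167360), which encodes endothelin-2, was not among the 5 genes and was therefore tested. It held 1.89, 1.82 and 1.94 CPM at 0 hours, 1.46, 1.27 and 1.35 CPM at 12 hours and 3.31, 6.41 and 4.84 CPM at 24 hours. The 12-hour libraries lay just below those of 0 hours and the 24-hour libraries above both, with the widest spread at 24 hours. The log2 fold change at 12 hours was -0.47 (SE 0.17) and missed the threshold (adjusted p = 0.11, by the quasi-likelihood test of edgeR, with p-values adjusted over all genes by the Benjamini-Hochberg method). Edn2 rose by 1.37 from 0 to 24 hours (log2, SE 0.21, adjusted p = 5.4e-05, edgeR) and by 1.86 from 12 to 24 hours (SE 0.22, adjusted p = 5.7e-06, edgeR). Without replicate 2 at 24 hours, the library with the highest Edn2, these log2 fold changes were 1.12 and 1.61. Edn3, the gene of endothelin-3, had no row in the table and was not analysed here.

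Set against each other per kilobase, Edn1 exceeded Edn2 at every time. The ratio of Edn1 to Edn2 was 11, 11.4 and 10.9 in the 0-hour libraries, 47.7, 60.9 and 52.5 at 12 hours and 12.7, 7.21 and 9.69 at 24 hours. The 12-hour ratios were all far above the others, whereas the ranges at 0 and 24 hours overlapped. Means were 11.1 ± 0.25, 53.7 ± 6.7 and 9.88 ± 2.8 (SD, n = 3). Across the 9 libraries the log2 levels of the 2 ligand genes had a Pearson r of -0.105, given as a description since the libraries share their times.

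Of the receptor genes, Ednrb alone could be examined, and it was at the limit of detection. Ednrb (ENSMUSG00000022122.15, chr14:103814625-103844402, minus strand) had 1 count in the 422154896 counts of all 9 libraries, in replicate 1 at 24 hours. The other 8 libraries had 0 counts of Ednrb. The limit used here for a count of 0, 3 counts, would be at most 0.0716 CPM in any library before TMM scaling. With TMM scaling, 3 counts in replicate 1 at 24 hours were 0.0735 CPM. Over all 9 libraries the exact 95% Poisson interval for Ednrb was 6e-05 to 0.0132 CPM, which covers counting error only. No change of Ednrb between the times was detectable at this depth. Ednra, the gene of the ETA receptor (chr8:77663031-77724464, minus strand), had no row in the table and was not analysed here. The locus 4933431K23Rik on the other strand shares 91 of its exon bases (1.7%). Of 6 markers of melanocytes and the neural crest in the table, cells known for Ednrb, Mitf alone reached a mean of 1 CPM over the 9 libraries, Pmel had a mean of 1.18 CPM at 24 hours, and Sox10 and Tyr had at most 3 counts in any library.

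Of the converting enzymes, only Ece1 was above the limit of detection in these libraries. Ece1 (ENSMUSG00000057530.14, chr4:137862237-137965229, plus strand) cuts the inactive intermediate big endothelin-1 to the active peptide. It held 1.04, 1.11 and 1.32 CPM at 0 hours, 1.16, 0.989 and 1.49 CPM at 12 hours and 0.76, 1.02 and 0.845 CPM at 24 hours. The 12-hour libraries overlapped those of both other times, and the 24-hour libraries lay below those of 0 hours by a narrow gap of 1.02 against 1.04 CPM. Means were 1.16 ± 0.15, 1.21 ± 0.25 and 0.874 ± 0.13 CPM (SD, n = 3). These levels rest on 174, 164 and 120 counts per time, whose exact 95% Poisson intervals were 0.998 to 1.35, 1.03 to 1.41 and 0.73 to 1.05 CPM, so counting error alone spans the differences between 0 and 12 hours.

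The log2 fold change of Ece1 was 0.06 (SE 0.22) at 12 hours, -0.40 (SE 0.24) at 24 hours and -0.44 (SE 0.25) from 12 to 24 hours. Leaving out replicate 1 at 0 hours or replicate 3 at 12 hours turned the 12-hour value to -0.01 or -0.11. With offsets for transcript length and GC content, the later values shrank to -0.02 and -0.05. Per kilobase of exon, Ece1 stood at 0.218, 0.229 and 0.165 CPM at 0, 12 and 24 hours, at rank 10621 of 15374 genes at time 0, 10603 at 12 hours and 10771 at 24 hours. The antisense gene Gm13012 lies within the Ece1 span and shares 0 of its exon bases.

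Ece2 (ENSMUSG00000022842.18, chr16:20629828-20646485, plus strand), which encodes a related converting enzyme that works at acidic pH and is best known from neurons, had 2 counts in all, both in replicate 2 at 0 hours. The exact 95% Poisson interval over the 9 libraries was 0.000574 to 0.0171 CPM. In the annotation, 57.5% of the 5110 exon bases of Ece2 are shared with Gm49333, a read-through locus with the same strand and no row in the table. Reads of the shared bases could have been left uncounted, so the Ece2 value is uncertain.

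**Figure D3:**
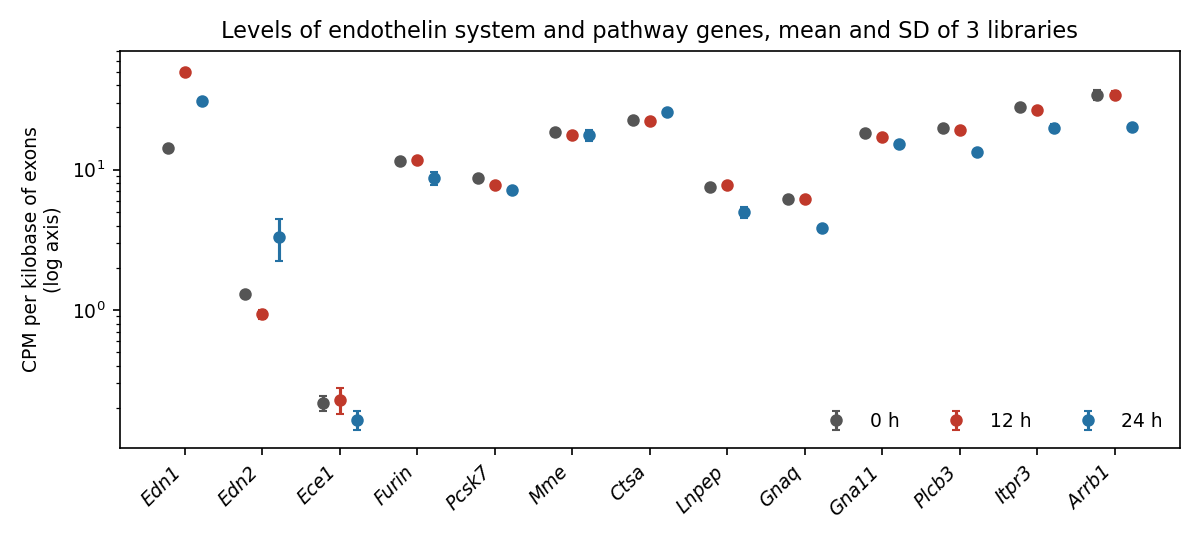
Level of endothelin system and pathway genes per kilobase of exon (TMM-scaled CPM per kilobase, log axis) at 0, 12 and 24 hours with ASPN; points are means and bars SD of 3 libraries. Ece1 lay lowest of the genes drawn (0.165 to 0.229), Edn1 moved from 14.3 to 49.7 and 30.8, and Ednrb and Ece2 are not drawn because their counts were 0 in most libraries.

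Of the other proteases that process or break down endothelins, Furin, Pcsk7, Mme, Ctsa and Lnpep were well measured, while Phex stayed under 1 CPM. Among 6 fitted genes of the list on precursor processing and peptide breakdown that are not members, 0 were called higher or lower at 12 hours, where a call is an adjusted p of at most 0.05 and a fold change of at least 1.5 and was made for 1.5% of all genes upward and 0.0964% downward. At an unadjusted p under 0.05, 0 of the 6 were higher and 1 lower, and DESeq2 and limma-voom also made 0 calls outside Junb and Nos2 over all lists. Furin, the gene of a convertase that cuts preproendothelin, held 109, 103 and 107 CPM at 0 hours, 108, 105 and 109 CPM at 12 hours and 70.9, 87.8 and 81.3 CPM at 24 hours. Its 24-hour libraries lay below all others, and the difference of -0.41 on the log2 scale (SE 0.064, adjusted p = 7.3e-05, edgeR) did not reach the fold threshold. Pcsk7, another convertase gene, had log2 fold changes of -0.15 at 12 hours and -0.28 at 24 hours.

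Mme, whose product neprilysin degrades endothelin-1, held 227, 204 and 209 CPM at 0 hours, 203, 216 and 197 CPM at 12 hours and 223, 189 and 198 CPM at 24 hours. The 3 ranges overlapped, and the log2 fold changes were -0.05 (SE 0.043, adjusted p = 0.53) and -0.07 (SE 0.060, adjusted p = 0.31, edgeR). Per kilobase, Mme stood at 18.5 CPM at 0 hours, above Edn1 (14.3), and at 17.8 CPM at 12 hours, below it (49.7). Ctsa, the gene of cathepsin A, a carboxypeptidase that can inactivate endothelin-1, stood at 0.20 on the log2 scale at 24 hours (SE 0.040, adjusted p = 0.00053, edgeR), under the fold threshold. Lnpep, the gene of an aminopeptidase of vasoactive peptides, was the 1 of the 6 genes called at 24 hours, when 16.8% of all genes were called lower, and fell by 0.60 (log2, SE 0.056, adjusted p = 5.3e-07, edgeR). Its call sat at the fold threshold and was lost under DESeq2 and RLE factors (-0.58 each) and upper-quartile factors (-0.56), and at -0.56 when replicate 1 at 0 hours, replicate 2 at 24 hours or replicate 3 at 24 hours was left out.

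Over all lists of pathway genes, 57 genes that are not members were fitted in each comparison. At 12 hours 2 of the 57 were called higher and 0 lower, compared with 1.5% and 0.0964% of all genes. Without replicate 1 at 12 hours 4 were called higher, and without replicate 1 at 0 hours or replicate 3 at 12 hours 3 were. At 24 hours 8 were called higher and 12 lower than at 0 hours (12% and 16.8% of all genes), and 7 were higher and 11 lower than at 12 hours (10.4% and 15.3%). For the 0 called lower at 12 hours, 8 genes had an unadjusted p under 0.05 and a lower level, and DESeq2 and limma-voom also called 0. The median log2 fold change of the 57 genes was 0.00, 0.01 and -0.01 in the 3 comparisons, beside 0.00, -0.02 and 0.00 for all genes. With total counts in place of TMM factors, the median of all genes moved from -0.02 to -0.24 at 24 hours, and the 24-hour calls were 7 higher and 17 lower, and with length and GC offsets 10 higher and 8 lower.

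**Figure D4:**
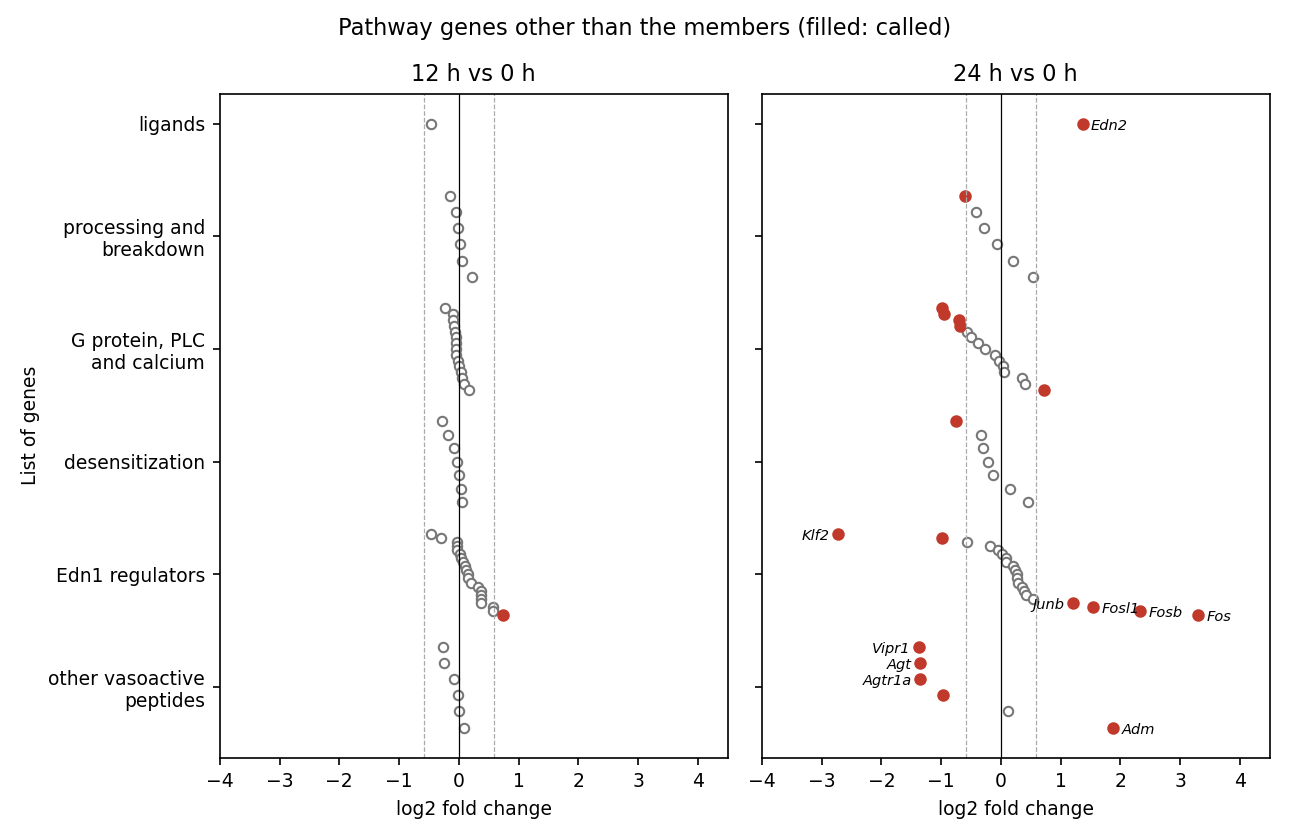
Log2 fold changes of the fitted pathway genes that are not members, by list, at 12 and 24 hours against 0 hours; filled points were called (adjusted p of at most 0.05 and a fold change of at least 1.5, dashed lines) and Nos2 is not drawn. Nearly all values lay close to 0 at 12 hours, and at 24 hours Fos (3.31) and Klf2 (-2.72) lay furthest out.

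Of 21 fitted transcription factor genes listed as known regulators of Edn1, 1 was called at 12 hours, and it was higher, as were 1.5% of all genes. For 12 of the 21 the 12-hour libraries did not overlap those of 0 hours, beside 27.1% of all genes. By the adjusted p alone, 10 of the 21 were higher and 1 lower at 12 hours, beside 782 and 396 of 11410 genes. Junb, an AP-1 subunit, was the gene called and held 190, 180 and 176 CPM at 0 hours, 297, 296 and 316 CPM at 12 hours and 348, 479 and 432 CPM at 24 hours. Unlike Edn1, Junb stood highest at 24 hours, and it rose by 0.74 at 12 hours (log2, SE 0.038, adjusted p = 4.6e-10) and by 1.21 at 24 hours (SE 0.087, adjusted p = 4.1e-08, edgeR).

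Nfkb1, the gene of an NF-kB subunit, held 78.8, 78.5 and 80.0 CPM at 0 hours, 111, 126 and 115 CPM at 12 hours and 84.6, 110 and 94.2 CPM at 24 hours. Its log2 fold change of 0.57 at 12 hours (SE 0.040, adjusted p = 3.3e-08, edgeR) was just under the fold threshold. Rela, the gene of another NF-kB subunit, had 0.38 at 12 hours (SE 0.040, adjusted p = 4.0e-06) and 0.27 at 24 hours (SE 0.053, adjusted p = 0.00047, edgeR), also under it. From 12 to 24 hours Rela libraries overlapped, and its log2 fold change of -0.09 did not pass the test (adjusted p = 0.19, edgeR). Jun, Jund and Smad3 had log2 fold changes of 0.20, 0.38 and 0.32 at 12 hours, under the fold threshold, and at 24 hours their libraries overlapped those of 0 hours.

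At 24 hours 4 of the 21 regulator genes were called higher and 2 lower than at 0 hours, beside 12% and 16.8% of all genes. Fos, the gene of an AP-1 subunit, held 20.3, 18.9 and 19.5 CPM at 0 hours, 25.1, 26.1 and 24.8 CPM at 12 hours and 199, 192 and 188 CPM at 24 hours. Fos rose by 3.31 (log2, SE 0.048, adjusted p = 4.8e-14, edgeR) at 24 hours, when Edn1 was below its 12-hour level. Fosb (2.33) and Fosl1 (1.55) were also called higher, as was Junb. Already at 12 hours Fos (0.38, adjusted p = 0.00012), Fosl1 (0.56, adjusted p = 1.6e-05) and Fosl2 (0.38, adjusted p = 1.0e-06, edgeR) were higher, under the fold threshold. Fosb did not pass the test at 12 hours (0.15, adjusted p = 0.76, edgeR). Klf2, a flow-responsive factor that restrains Edn1 in endothelium, held 16.8, 16.7 and 15.7 CPM at 0 hours, 13.8, 12.6 and 13.7 CPM at 12 hours and 2.87, 2.22 and 2.41 CPM at 24 hours. It fell by 2.72 at 24 hours (log2, SE 0.11, adjusted p = 2.5e-10, edgeR). Epas1, a hypoxia-inducible factor subunit, fell by 0.98 from a mean of 0.653 CPM. That call was lost without replicate 1 (-0.83) or replicate 3 (-0.94) at 0 hours, without replicate 2 at 24 hours (-0.80) and with length and GC offsets (-0.56). Hif1a did not pass the test (-0.06, adjusted p = 0.26, edgeR).

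Of 15 fitted genes of the G protein, phospholipase C and calcium arm downstream of the receptors, 0 were called at 12 hours (1.5% of all genes were called higher and 0.0964% lower), 2 were higher and 3 lower at an unadjusted p under 0.05, and DESeq2 and limma-voom called 0. At 24 hours 4 of the 15 fell and 1 rose, beside 16.8% and 12% of all genes. Gnaq, the gene of a G protein subunit that couples endothelin receptors to phospholipase C, held 40.1, 37.9 and 37.5 CPM at 0 hours, 39.1, 38.7 and 37.4 CPM at 12 hours and 23.0, 23.7 and 24.2 CPM at 24 hours. The 24-hour libraries lay well below all others, and Gnaq fell by 0.70 (log2, SE 0.055, adjusted p = 9.0e-08, edgeR), to -0.55 and no call with length and GC offsets. Gna11, another G protein subunit gene of the list, stood at 18.2 CPM per kilobase at 0 hours, above Gnaq (6.22). Gna11 fell by 0.26 at 24 hours (log2, SE 0.049, adjusted p = 0.00033, edgeR), under the fold threshold.

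Itpr1, a calcium release channel gene, fell by 0.94 at 24 hours (log2, SE 0.046, adjusted p = 1.3e-09, edgeR). Gna12 fell by 0.68 and was not called with length and GC offsets (-0.46). Plcb1 fell by 0.99 from a mean of 0.703 CPM and was not called without replicate 1 (-0.78) or replicate 2 (-0.97) at 0 hours or without replicate 2 at 24 hours (-0.90). Gnas, the gene of the stimulatory G protein subunit, held 93.7, 94.5 and 92.1 CPM at 0 hours, 86.7, 83.0 and 91.1 CPM at 12 hours and 144, 158 and 158 CPM at 24 hours. It rose by 0.72 at 24 hours (log2, SE 0.046, adjusted p = 1.4e-08, edgeR), a call lost with total counts (0.49). Gnas lies in a locus of overlapping transcripts on both strands, so its counts are uncertain without the strand setting.

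Of 7 fitted genes of receptor desensitization, 0 were called at 12 hours by edgeR (1.5% of all genes were higher and 0.0964% lower), DESeq2 or limma-voom, and 0 were higher and 1 lower at an unadjusted p under 0.05. Arrb1, the gene of beta-arrestin 1, which binds activated endothelin receptors, was the 1 of the 7 called at 24 hours, when 16.8% of all genes were called lower. It held 417, 374 and 357 CPM at 0 hours, 359, 378 and 411 CPM at 12 hours and 223, 237 and 221 CPM at 24 hours. It fell by 0.75 (log2, SE 0.055, adjusted p = 4.9e-08, edgeR), and by 0.23 with no call when length and GC offsets were used. Arrb2, the gene of beta-arrestin 2, went the other way, by 0.45 at 24 hours (log2, SE 0.098, adjusted p = 0.0011, edgeR), under the fold threshold. Per kilobase at 0 hours, Arrb2 stood at 3.66 CPM and Arrb1 at 34.3 CPM. Rgs2, a regulator that turns off Gq signaling, stood at -0.28 on the log2 scale at 12 hours (SE 0.030, adjusted p = 6.2e-06, edgeR), under the fold threshold.

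Among 7 fitted genes of other vasoactive systems, Nos2 was the 1 called at 12 hours, when 1.5% of all genes were called higher. Nos2, the gene of inducible nitric oxide synthase, had 2 counts in all at 0 hours, both in replicate 2, 550 at 12 hours and 850 at 24 hours. Its ratio to 0 hours was 302 at 12 hours (95% interval 83.3 to 2500) and 466 at 24 hours (129 to 3850), intervals that cover counting error only. Without replicate 2 at 0 hours, where the other libraries held 0 counts, Nos2 was at least 139-fold higher at 12 hours and at least 214-fold higher at 24 hours, against 3 counts over those 2 libraries. Adm, the gene of the vasodilator adrenomedullin, held 1.93, 1.37 and 1.83 CPM at 0 hours, 1.31, 1.78 and 2.08 CPM at 12 hours and 5.03, 7.41 and 6.47 CPM at 24 hours. The 24-hour libraries lay above all others, while those of 0 and 12 hours overlapped, and Adm rose by 1.88 (log2, SE 0.18, adjusted p = 5.0e-07, edgeR).

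At 24 hours 2 of the 7 genes rose, Nos2 and Adm, and 4 fell, Agt, Agtr1a, Npr1 and Vipr1, beside 12% and 16.8% of all genes. Agtr1a, the gene of the type 1 angiotensin II receptor, was the most abundant of them. It held 127, 120 and 120 CPM at 0 hours, 105, 100 and 99.6 CPM at 12 hours and 51.1, 45.2 and 48.2 CPM at 24 hours. Agtr1a fell by 1.35 (log2, SE 0.051, adjusted p = 1.8e-10, edgeR), and Agt, the gene of angiotensinogen, fell by 1.36 from 4.40 CPM. Per kilobase at 0 hours, Agtr1a stood at 44.0 CPM, above Edn1 (14.3).

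The genes whose profile over the 9 libraries was most like that of Edn1, by Pearson r of log2 CPM among 11270 genes, were Tnfaip3 (0.996), Elf3 (0.996), Csf1 (0.992), Nfkbiz (0.989) and Trp53 (0.988). Tnfaip3, which encodes a ubiquitin-editing enzyme, had means of 81.6, 373 and 223 CPM at 0, 12 and 24 hours. Elf3, the gene of an epithelial ETS factor, had 13.2, 56.2 and 33.2 CPM, and Csf1, the gene of a macrophage growth factor, 21.1, 120 and 54.0 CPM. Nfkbiz, the gene of a nuclear IkB protein, had the largest ratio of 12 to 0 hours among the 5 (20.3, 199 and 64.2 CPM), and Trp53, the gene of p53, the smallest (75.6, 102 and 93.1 CPM). All 5 stood highest at 12 hours and between the other times at 24 hours, which follows from their choice by r, and r does not reflect the size of a change. The 9 libraries share 3 times, so r describes the order of the times and carries no p.

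**Figure D5:**
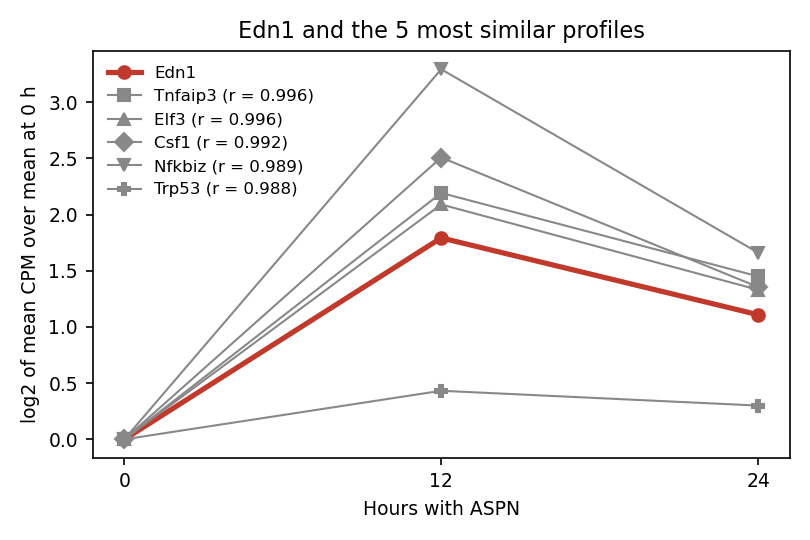
Log2 of the mean CPM over the mean at 0 hours for Edn1 and its 5 most similar profiles, by hours with ASPN (3 libraries per point), with Pearson r over 9 libraries in the legend. All 6 lines peak at 12 hours and lie above 0 at 24 hours, with Nfkbiz (20.3 to 199 CPM) highest and Trp53 (75.6 to 102 CPM) lowest. The shared shape follows from the choice by r.

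For Ece1 the closest profiles were weaker: Ahr (0.921), Map1s (0.921), 2310022B05Rik (0.915), Tmub1 (0.904) and Ccdc51 (0.903). Ahr, the gene of the aryl hydrocarbon receptor, had means of 11.3, 11.3 and 8.72 CPM and was lowest at 24 hours, an order that its choice by r favors. The r values of Ece1 rest on 31 to 72 counts per library.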

How the data were processed

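Raw gene counts from the RNA-Seq of 9 MyC-CaP libraries were used as the authors deposited them. Per the study's methods, the authors aligned reads to GRCm38.p6 with STAR 2.7.11a and counted reads per gene with featureCounts 2.0.2, and the treatment of multi-mapped reads is not given in the sources used here. Samples were grouped by the time in their labels. The 5 genes and the gene lists were chosen with earlier results of these data known. Gene positions and exon lengths were read from GENCODE M21, in which 15374 of 15384 genes were found by identifier (99.9%), and start windows from RefSeq. No protein sequence was used.

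Each pair of times was fitted in R 4.3.3 with edgeR 4.0.16 (filterByExpr, TMM factors, quasi-likelihood test, no block), with Benjamini-Hochberg adjustment over all genes fitted and calls at an adjusted p of at most 0.05 and a fold change of at least 1.5. The labels call the replicates biological and the study's methods describe plating in triplicate, so p-values measure the spread between these samples, which may be technical. Named genes were the 5 genes, Edn2 and Edn3, up to 6 called genes per list and comparison with the largest changes, the 5 most correlated genes (log2 CPM, prior count 2) of members with a mean of at least 1 CPM, and genes sharing their exons. Other listed genes are named as examples chosen after their values were seen. Alternatives were DESeq2 1.42.0, limma 3.58.1 with voom, RLE, upper-quartile and total-count scaling, no filter or a minimum of 10 counts, 1 fit over all libraries, a replicate block, length and GC offsets, the adjusted p alone, and each library left out. The scripts were tested on simulated counts. Intervals cover counting error only. Some of the epithelial markers are not reported here.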

Additional observations from a re-analysis of the deposited data

Results flagged for a closer look

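Edn2 was marked because its 12-hour libraries all lay below those of 0 hours and its 24-hour libraries all lay above them. Its log2 fold change was -0.47 at 12 hours, which missed the threshold, 1.37 at 24 hours and 1.86 from 12 to 24 hours (SE 0.22, adjusted p = 5.7e-06, edgeR). Edn1 had the opposite order at the later times, with -0.67 from 12 to 24 hours, and the difference between both ligand genes was not tested. Gnas was marked for the same pattern, with log2 fold changes of -0.10 at 12 hours, 0.72 at 24 hours and 0.84 from 12 to 24 hours (adjusted p = 4.0e-09, edgeR).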

How the results depend on the processing

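The numbering of replicates did not pair the libraries (correlations of same-numbered deviations from -0.106 to 0.057). With the replicate block, 172, 3247 and 2926 genes were called at 12 hours, at 24 hours and from 12 to 24 hours, against 182, 3298 and 2924, and of the pathway genes 2, 20 and 18 as before. Edn1 and Edn2 kept their directions in every comparison under every alternative run. Edn1 moved by more than the replicate SD with total counts (0.89 at 24 hours, -0.89 from 12 to 24 hours) and with length and GC offsets (0.98 and -0.78). Ece1 moved to -0.62 at 24 hours with total counts, and to -0.019 and -0.047 with length and GC offsets. The adjusted p alone called 1178, 8119 and 8124 genes and 16, 42 and 38 pathway genes. A minimum of 10 counts in every library left 1 pathway gene at 12 hours, since Nos2 was then not fitted. Leaving out 1 library gave 148 to 198, 3248 to 3312 and 2871 to 3003 genes and 2 to 4, 17 to 20 and 17 to 19 pathway genes, with the 4 at 12 hours reached without replicate 1 of that time. Total counts split the calls of all genes into 698 higher and 3008 lower at 24 hours, and length and GC offsets into 1451 and 1480, against 1374 and 1924. From 12 to 24 hours the splits were 484 and 2830, and 1269 and 1277, against 1184 and 1740, and for pathway genes 6 and 16, and 7 and 7, against 7 and 11. In the Edn1 window, 2 of the 8 motifs remained when only the upstream bases were searched, against 5. Of these shifts, the causes were not tested. Depth limits the values of Ece1, with 31 to 72 counts per library, and of Ednrb and Ece2, with 3 counts in all.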
